A study of Mus musculus with 9 samples.

Results

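Lipolysis, the breakdown of stored triglyceride into fatty acids and glycerol, was followed through 9 genes that code for its enzymes and for the proteins that switch them on and off. They are the hydrolases Pnpla2 (adipose triglyceride lipase, ATGL), Lipe (hormone-sensitive lipase, HSL), Mgll (monoglyceride lipase) and Pnpla3 (a paralogue of Pnpla2), the ATGL coactivator Abhd5 (CGI-58), the ATGL inhibitor G0s2, the β3-adrenergic receptor Adrb3, the protein kinase A regulatory subunit Prkar2b (RIIβ) and the glycerol channel Aqp7. The genes were chosen by name, with earlier results of these data known. All 9 were found among the 54532 genes of the deposited tables, each in 1 row. 3T3-L1 is a mouse preadipocyte line, which the labels call fibroblast, that fills with lipid when it is given an adipogenic cocktail. RNA was sequenced from cells that in every group had been confluent for 3 days. Undifferentiated cells received no cocktail. Differentiated cells were given a differentiation medium with insulin (10 μg/mL), rosiglitazone (1 μM), dexamethasone (1 μM) and IBMX (3-isobutyl-1-methylxanthine, 0.5 mM). Lysfree cells were given the same cocktail in medium without lysine. Each group had n = 3 libraries. All groups came from the same line, and the labels name no other genetic change or treatment. Nothing in the labels says whether the 3 libraries of a group came from separate cultures. The p-values thus reflect at most the spread between these libraries, pooled in part or wholly over genes.

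In adipocytes, triglyceride is cleaved in sequence. ATGL removes the first fatty acid, HSL acts mainly on the resulting diglyceride, monoglyceride lipase releases the last fatty acid, and the glycerol leaves through aquaporin channels. Catecholamines acting on β-adrenergic receptors raise cyclic AMP, protein kinase A then phosphorylates HSL and the droplet coat protein perilipin 1, and phosphorylated perilipin 1 releases CGI-58 to activate ATGL, whereas insulin, lactate and niacin receptors work in the opposite direction. IBMX, which the Differentiated and Lysfree media shared, is a phosphodiesterase inhibitor that raises cyclic AMP, and rosiglitazone is an agonist of PPARγ, a nuclear receptor that drives many adipocyte genes.

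Counts summed to between 15880144 and 21806693 per library. Levels are given in the deposited FPKM (fragments scaled to gene length and library total). Between genes they can be compared only as far as the gene lengths hold. Changes are given as log2 fold changes from the counts, with the standard error (SE). A gene with an at least 2-fold change and an adjusted p under 0.05 was taken as a differentially expressed gene (DEG). The p came from edgeR's quasi-likelihood test, adjusted by Benjamini-Hochberg over all genes tested. That test moves each gene's spread towards a value pooled over genes. The prior degrees of freedom were 15.89 in Lysfree vs Differentiated and 28 in Lysfree vs Undifferentiated. In Differentiated vs Undifferentiated they were infinite, so SE and p there do not reflect a gene's own spread between libraries. Adipocyte markers summed to 159 to 239 FPKM in the Undifferentiated, 6099 to 6407 FPKM in the Differentiated and 72.2 to 78.6 FPKM in the Lysfree libraries, with all 8 markers counted in the first 2 groups and Lep at 0 in the Lysfree group, whereas 8 preadipocyte and fibroblast markers summed to 4044 to 4386, 1021 to 1026 and 1528 to 1584 FPKM. The largest terms were Cidec and Fabp4 (2452 and 2445 FPKM in Differentiated), and Col1a1 and Col1a2 (1887 and 1282 FPKM in Undifferentiated). Of the 8 preadipocyte and fibroblast markers, 5 were lower DEGs in Lysfree vs Undifferentiated and 0 higher. Mean Thy1 (70.4, 27.8 and 89.1 FPKM) and Vim (602, 382 and 607 FPKM) were not lower in Lysfree. The adipocyte markers Fabp4, Plin1, Cidec, Pparg and Cebpa are also in the pathway list below. In bulk RNA a smaller share of lipid-forming cells and less transcript per cell cannot be told apart, and neither was tested. Some genes below had mean Lysfree levels outside those of both other groups. In Undifferentiated, Differentiated and Lysfree cells, Ces1d was at 13.4, 11.8 and 0.364 FPKM and Pde4b at 2.14, 2.19 and 5.37 FPKM. Macrophage and leukocyte markers summed to at most 10.7 FPKM with Adgre1 and Itgam at 0 in every library, endothelial markers to at most 0.272 FPKM and epithelial markers to at most 0.436 FPKM with Epcam at 0. Lysfree 1 stood apart from the other 2 Lysfree libraries (chi-square per degree of freedom 43.6 and 44.7 against 2.76 between Lysfree 2 and Lysfree 3, and 1.60% of counts on mitochondrial genes against 0.879% and 0.906%), and no lipolysis gene gained or lost DEG status without it.

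The sequence upstream of the start site is shown for ATGL, its coactivator and its paralogue, because these genes rose together in differentiation but ended at different levels in lysine-free medium. The windows come from RefSeq (GRCm38.p6), which held 8 of the 9 genes in the promoter table, and stop before the first exonic base of the deposited gene. Capitals mark matches, on either strand, to the GC box, GGGCGG, the cAMP response element core, TGACG, and the nuclear receptor hexamer, AGGTCA, so that a match on the other strand appears as the reverse complement.
Pnpla2, chr7:141454938-141455187, plus strand: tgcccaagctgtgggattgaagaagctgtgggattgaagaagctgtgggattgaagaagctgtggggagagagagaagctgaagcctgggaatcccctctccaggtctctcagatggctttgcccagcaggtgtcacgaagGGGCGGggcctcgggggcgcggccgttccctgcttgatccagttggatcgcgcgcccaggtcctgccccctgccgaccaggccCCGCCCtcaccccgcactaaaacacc
Abhd5, chr9:122351366-122351607, plus strand: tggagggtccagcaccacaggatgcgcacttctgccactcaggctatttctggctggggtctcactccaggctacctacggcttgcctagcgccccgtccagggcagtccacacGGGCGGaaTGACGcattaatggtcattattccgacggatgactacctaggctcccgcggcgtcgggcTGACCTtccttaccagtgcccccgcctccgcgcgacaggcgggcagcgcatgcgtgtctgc
Pnpla3, chr15:84167566-84167815, plus strand: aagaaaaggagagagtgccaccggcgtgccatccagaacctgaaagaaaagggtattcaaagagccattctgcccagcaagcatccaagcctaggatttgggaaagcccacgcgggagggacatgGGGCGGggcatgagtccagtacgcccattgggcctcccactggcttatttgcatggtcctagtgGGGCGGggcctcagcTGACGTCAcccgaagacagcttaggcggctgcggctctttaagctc
The Pnpla2 window held a GC box beginning 109 bases and a reversed one beginning 26 bases upstream of the start. Abhd5 had a GC box at 136, TGACG at 128 and a reversed AGGTCA at 69 bases upstream. Pnpla3 had GC boxes at 125 and 61 bases, and TGACG on both strands, overlapping as TGACGTCA, at 46 bases upstream. Among 32851 mouse windows of 250 bases, 32.7% held GGGCGG, 17.8% TGACG and 14% AGGTCA. The direct repeat DR1 of the nuclear receptor hexamer with 1 base between its copies (0.338% of all windows), TTGCNNAA (9.56%) and TATAAA (12.4%) had no match in the windows of the 8 genes. These are matches of letters only.

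All 9 lipolysis genes were higher in Differentiated than in Undifferentiated cells, all 9 were lower in Lysfree than in Differentiated cells, and 4 of 9 were DEGs between Lysfree and Undifferentiated cells. The background was 21.8% of 24402 genes called in Differentiated vs Undifferentiated (10.4% higher, 11.4% lower), 18.7% of 24130 in Lysfree vs Differentiated (8.14% higher, 10.5% lower) and 14.3% of 23994 in Lysfree vs Undifferentiated (5.52% higher, 8.76% lower). The median log2 fold change of the 9 genes was 4.12, -5.03 and -0.07 in the 3 comparisons, against 0.02, -0.06 and -0.02 over all genes tested; with Adrb3 at its bound the second was -4.02. The FPKM of the 2 groups did not overlap for 9 of 9, 9 of 9 and 6 of 9 genes, against 50.9%, 46.6% and 43.5% of all genes. With limma on log2(FPKM + 1), a scale that understates changes of low genes, none of the 4 DEGs of Lysfree vs Undifferentiated passed the 2-fold threshold. The comparisons share libraries and are not independent of each other. Because the 9 genes were chosen with earlier results of these data known, the background shares stand beside them as description only.

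**Figure D1:**
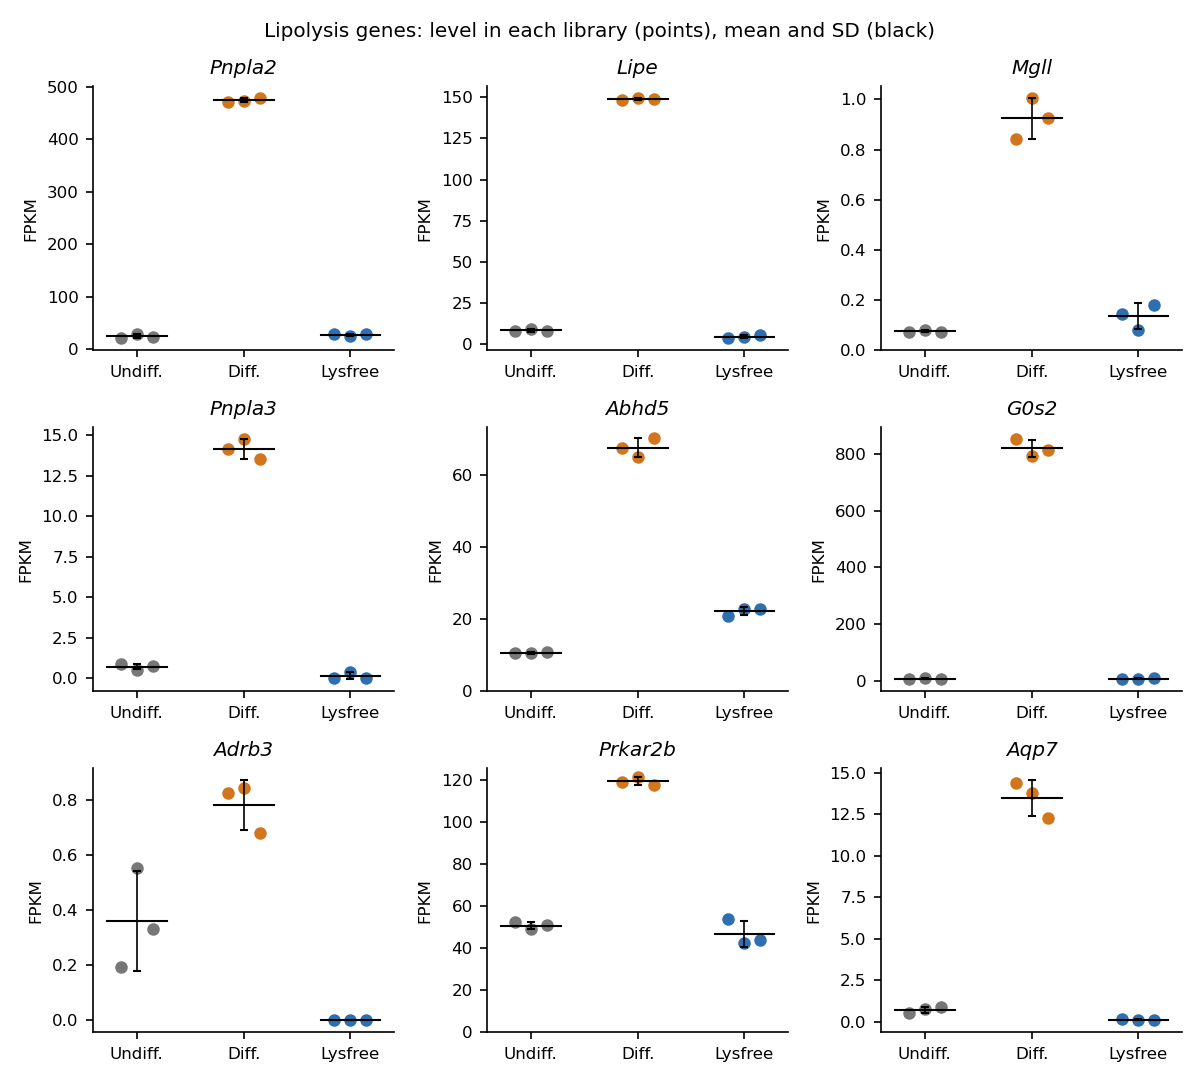
FPKM of the 9 lipolysis genes in each library, 1 panel per gene, on a separate vertical scale for each. Points are libraries and bars are group means with SD (n = 3). Every Differentiated library lies above every Undifferentiated and Lysfree library in all 9 panels.

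Among the hydrolases, Pnpla2 (ENSMUSG00000025509, mm10 chromosome 7, 141455198 to 141460743, plus strand) was the most abundant in every group. It was at 21.9, 29.1 and 23.1 FPKM in the Undifferentiated libraries, at 471, 473 and 478 FPKM in the Differentiated libraries and at 29.1, 26.0 and 28.7 FPKM in the Lysfree libraries. The Lysfree values thus overlapped the Undifferentiated range and were far below the Differentiated one. The log2 fold change was 4.23 (SE 0.055) in Differentiated vs Undifferentiated, with an adjusted p too small to be held as a number other than 0, and -4.02 (SE 0.09, adjusted p = 2.5e-18) in Lysfree vs Differentiated. Between Lysfree and Undifferentiated cells it was 0.22 (SE 0.11, adjusted p = 0.13), and the groups overlapped.

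Lipe (ENSMUSG00000003123, chromosome 7, 25379527 to 25398710, minus strand) was at 8.01, 9.37 and 7.86 FPKM in Undifferentiated, 148, 150 and 149 FPKM in Differentiated and 3.57, 4.07 and 5.41 FPKM in Lysfree cells. Unlike Pnpla2, its 3 Lysfree libraries were all below the lowest Undifferentiated library. Lipe rose by a log2 fold change of 4.12 (SE 0.06, adjusted p held as 0) and fell in Lysfree vs Differentiated (-5.03, SE 0.13, adjusted p = 2.7e-17). Against Undifferentiated cells the change of -0.90 (SE 0.14, adjusted p = 1.4e-06) passed the p threshold but not the 2-fold threshold, which it passed without Lysfree 3 (-1.09, adjusted p = 3.7e-12). An antisense gene, 4732471J01Rik, overlaps Lipe and had at most 137 counts in a library.

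Mgll (ENSMUSG00000033174, chromosome 6, 88724412 to 88828360, plus strand) was near the limit of detection, with 8, 9 and 6 counts in Undifferentiated, 66, 95 and 76 in Differentiated and 13, 8 and 18 in Lysfree libraries. These correspond to 0.0762 ± 0.00401, 0.924 ± 0.0823 and 0.137 ± 0.0506 FPKM (SD, n = 3), so Mgll stayed under 1 FPKM on average in every group. Abhd6 (2.62, 4.41 and 5.42 FPKM) and Abhd12 (28.1, 35.4 and 21.9 FPKM), from the list of other hydrolases, were above Mgll in every group. The log2 fold change was 3.55 (SE 0.31, adjusted p = 2.9e-29) on differentiation and -2.68 (SE 0.29, adjusted p = 1.4e-07) in Lysfree vs Differentiated, and 0.88 (SE 0.52, adjusted p = 0.21) in Lysfree vs Undifferentiated. Of 5 genes that overlap Mgll, only Gm26588 had reads, at most 10 in a library.

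Pnpla3 (ENSMUSG00000041653, chromosome 15, 84167837 to 84187236, plus strand), a triglyceride hydrolase and transacylase of lipid droplets, had 28, 17 and 19 counts in Undifferentiated, 339, 426 and 338 in Differentiated, and 0, 11 and 0 in Lysfree libraries. All of its Lysfree reads were in Lysfree 2. In FPKM the groups were at 0.705 ± 0.182, 14.1 ± 0.629 and 0.124 ± 0.215. It rose on differentiation (log2 fold change 4.31, SE 0.17, adjusted p = 5.2e-145) and fell in Lysfree vs Differentiated (-6.69, SE 0.40, adjusted p = 1.3e-11). Set against a floor of 3 counts per library, Lysfree 1 and Lysfree 3 were at least 123-fold lower than the Differentiated group and at least 6.39-fold lower than the Undifferentiated group. The fall below the Undifferentiated level (-2.39, SE 0.67, adjusted p = 0.0042) lost significance without Undifferentiated 3 (-2.33, adjusted p = 0.064), and the fitted value moved to -7.38 without Lysfree 2, as the value against Differentiated moved to -11.55. Mir6392, which overlaps Pnpla3, had at most 10 counts.

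The 2 regulators of ATGL among the 9 genes behaved differently from each other. Abhd5 (ENSMUSG00000032540, chromosome 9, 122351608 to 122381524, plus strand) was at 10.7, 10.5 and 10.9 FPKM in Undifferentiated, 67.4, 64.9 and 70.3 FPKM in Differentiated and 21.0, 22.8 and 23.0 FPKM in Lysfree cells. The 3 groups were fully separated, with Lysfree between the others. Abhd5 was the only one of the 9 genes that was a DEG with a higher level in Lysfree than in Undifferentiated cells (log2 fold change 1.10, SE 0.10, adjusted p = 7.3e-11), after a rise of 2.63 (SE 0.06, adjusted p held as 0) in Differentiated vs Undifferentiated and a difference of -1.54 (SE 0.09, adjusted p = 5.3e-12) in Lysfree vs Differentiated.

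G0s2 (ENSMUSG00000009633, chromosome 1, 193272161 to 193273217, minus strand) was at 6.41, 9.74 and 8.03 FPKM in Undifferentiated, 853, 793 and 814 FPKM in Differentiated and 5.62, 7.71 and 10.8 FPKM in Lysfree cells. It had the highest FPKM of the 9 genes in Differentiated cells but ranked below Prkar2b, Pnpla2, Abhd5 and Lipe in Undifferentiated cells. The log2 fold changes were 6.64 (SE 0.07, adjusted p held as 0) and -6.60 (SE 0.17, adjusted p = 1.4e-17). Lysfree and Undifferentiated libraries overlapped, with a log2 fold change of 0.05 (SE 0.21, adjusted p = 0.89), whose sign turned under some settings. Lamb3, on the other strand, overlaps G0s2 and had at most 102 counts.

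Upstream of the lipases, Adrb3 (ENSMUSG00000031489, chromosome 8, 27225776 to 27250616, minus strand), the β-adrenergic receptor typical of mature fat cells, was low in all groups. It had 14, 41 and 18 counts in Undifferentiated (0.195, 0.554 and 0.333 FPKM), 43, 53 and 37 in Differentiated (0.823, 0.843 and 0.678 FPKM) and 0, 0 and 0 in Lysfree libraries. Thus no read fell on it in lysine-free medium, which put it at least 14.9-fold lower than in Differentiated and at least 7.16-fold lower than in Undifferentiated cells against the floor of 3 counts per library (adjusted p = 1.3e-08 and 4.2e-07). Gm45470, on the other strand, overlaps Adrb3 and had at most 19 counts. The rise on differentiation was just over 2-fold (log2 fold change 1.08, SE 0.28, adjusted p = 0.00042) and rested on 1 library, since without Undifferentiated 1 it was 0.76 (adjusted p = 0.024), under the 2-fold threshold, and without Undifferentiated 2 it was 1.58.

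Prkar2b (ENSMUSG00000002997, chromosome 12, 31958476 to 32061296, minus strand) was at 52.3, 49.1 and 50.8 FPKM in Undifferentiated, 119, 121 and 117 FPKM in Differentiated and 53.9, 42.5 and 43.9 FPKM in Lysfree cells. It was the most abundant of the 9 genes in Undifferentiated and Lysfree cells, which overlapped. Its log2 fold changes were 1.21 (SE 0.05, adjusted p = 2.5e-113), -1.29 (SE 0.09, adjusted p = 3.3e-10) and, for Lysfree vs Undifferentiated, -0.07 (SE 0.10, adjusted p = 0.61).

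Aqp7 (ENSMUSG00000028427, chromosome 4, 41033074 to 41048139, minus strand), which lets glycerol out of the adipocyte, was at 0.514, 0.758 and 0.883 FPKM in Undifferentiated, 14.4, 13.8 and 12.2 FPKM in Differentiated and 0.161, 0.0927 and 0.109 FPKM in Lysfree cells. The Lysfree values rested on 8, 5 and 6 counts and were below every Undifferentiated library. Aqp7 rose by 4.22 (SE 0.13, adjusted p = 4.2e-230) and differed by -6.72 (SE 0.21, adjusted p = 4.1e-16) in Lysfree vs Differentiated and by -2.50 (SE 0.41, adjusted p = 5.7e-06) in Lysfree vs Undifferentiated.

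**Figure D2:**
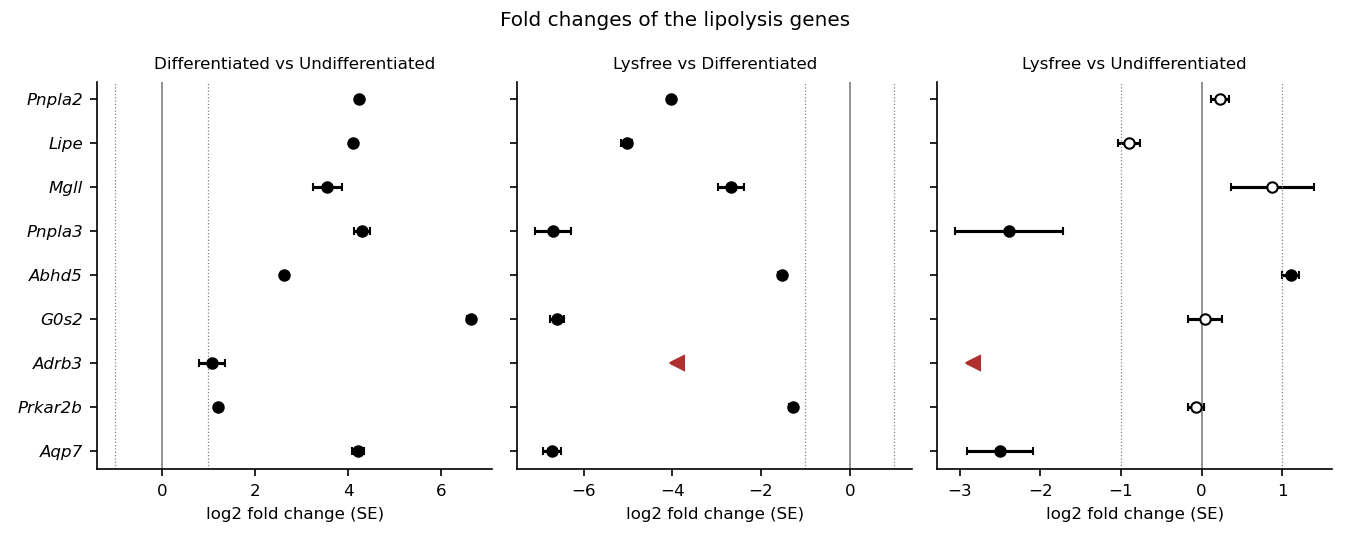
Log2 fold change of the 9 lipolysis genes in the 3 comparisons, with SE bars; filled points are DEGs, open points are not, dotted lines mark a 2-fold change, the triangle for Adrb3 is a bound, and the horizontal scale differs between panels. All 9 points lie right of 0 in Differentiated vs Undifferentiated and left of 0 in Lysfree vs Differentiated, while in Lysfree vs Undifferentiated Abhd5 (1.10) lies right and Pnpla3, Adrb3 and Aqp7 lie left of the 2-fold lines.

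Ordered by FPKM, Differentiated cells ran from G0s2 through Pnpla2, Lipe, Prkar2b and Abhd5 to Pnpla3, Aqp7, Mgll and Adrb3, where Pnpla3 and Aqp7, and Mgll and Adrb3, overlapped in range. Undifferentiated cells ran from Prkar2b through Pnpla2, Abhd5, Lipe, G0s2, Aqp7, Pnpla3 and Adrb3 to Mgll, where Lipe and G0s2 overlapped, as did Aqp7 and Pnpla3, and Pnpla3 and Adrb3. Lysfree cells ran from Prkar2b through Pnpla2, Abhd5, G0s2 and Lipe to Mgll, Pnpla3 and Aqp7, which overlapped in that order, and ended with Adrb3.

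The balance between the genes was compared as ratios of FPKM within a library, which do not depend on the scaling between libraries. With 3 libraries against 3, a two-sided exact permutation test cannot give a p below 0.1, so none of the 15 tests could pass 0.05. The inhibitor's FPKM exceeded that of the lipase only in the Differentiated group, where the ratio of G0s2 to Pnpla2 was 1.68 to 1.81. The ratio was 0.293 to 0.347 in Undifferentiated and 0.193 to 0.375 in Lysfree libraries. In counts G0s2 was below Pnpla2 in every library (in Differentiated 11452 to 12866 against 22008 to 26594). A ratio above 1 thus rests on the gene lengths used for FPKM, 871 and 3020 bases. On the log2 scale the means were 0.79 ± 0.06, -1.62 ± 0.13 and -1.85 ± 0.49 (SD, n = 3), where Differentiated was separated from both other groups (exact permutation p = 0.1, adjusted 0.107 over 15 tests, in each) and Lysfree overlapped with Undifferentiated (exact permutation p = 0.7, adjusted 0.7).

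The coactivator moved the other way relative to the lipase. The ratio of Abhd5 to Pnpla2 was 0.362 to 0.487 in Undifferentiated, 0.137 to 0.147 in Differentiated and 0.723 to 0.876 in Lysfree libraries, so all 3 groups were separated and Lysfree was the highest. The differences in mean log2 ratio were -1.62 for Differentiated vs Undifferentiated, 2.49 for Lysfree vs Differentiated and 0.87 for Lysfree vs Undifferentiated (exact permutation p = 0.1, adjusted 0.107, in each).

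HSL and ATGL transcripts kept a similar proportion in the first 2 groups, with a ratio of Lipe to Pnpla2 of 0.323 to 0.366 in Undifferentiated and 0.311 to 0.316 in Differentiated libraries, whose ranges did not overlap. It was 0.123 to 0.189 in Lysfree libraries, a mean log2 difference of -1.03 from Differentiated and -1.16 from Undifferentiated (exact permutation p = 0.1, adjusted 0.107, in each). The ratio of Lipe to Mgll was 107 to 116, 149 to 176 and 24.5 to 49.3 in the 3 groups, and rested on the low counts of Mgll.

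**Figure D3:**
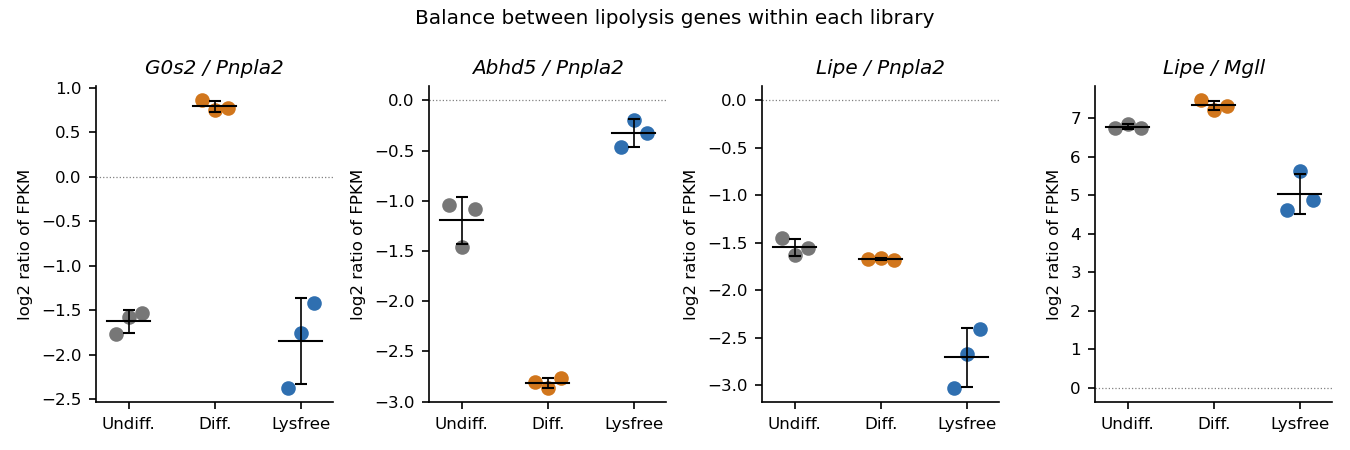
Log2 ratio of FPKM within each library for 4 pairs of lipolysis genes; points are libraries and bars are means with SD (n = 3), with a separate vertical scale for each panel and a dotted line at a ratio of 1. G0s2 exceeds Pnpla2 in the Differentiated libraries alone (1.68 to 1.81), and Abhd5 relative to Pnpla2 is lowest there (0.137 to 0.147).

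Prkar2b codes for 1 of 4 regulatory subunits that hold the catalytic subunits of protein kinase A inactive until cyclic AMP binds. Its share of the summed FPKM of the 4 subunits was 36.0% ± 0.436 in Undifferentiated, 60.0% ± 0.493 in Differentiated and 39.6% ± 0.934 in Lysfree libraries (SD, n = 3), with no overlap between any 2 groups (exact permutation p = 0.1, adjusted 0.107, in each comparison). Prkar1a (RIα), the main subunit in Undifferentiated cells with 57.9% ± 0.627, was at 29.8% ± 1.00 in Differentiated and 48.3% ± 0.960 in Lysfree cells. Prkar2a had 6.08%, 10.2% and 12.1%, and Prkar1b under 0.1% in every library. The sum was 141 ± 2.84 FPKM, 199 ± 1.77 FPKM and 118 ± 14.4 FPKM. Prkar2a was a DEG on differentiation with the same size of rise as Prkar2b (1.21, SE 0.06, adjusted p = 1e-80), whereas Prkar1a changed by -0.49 (SE 0.05, adjusted p = 2.9e-20), under the 2-fold threshold.

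**Figure D4:**
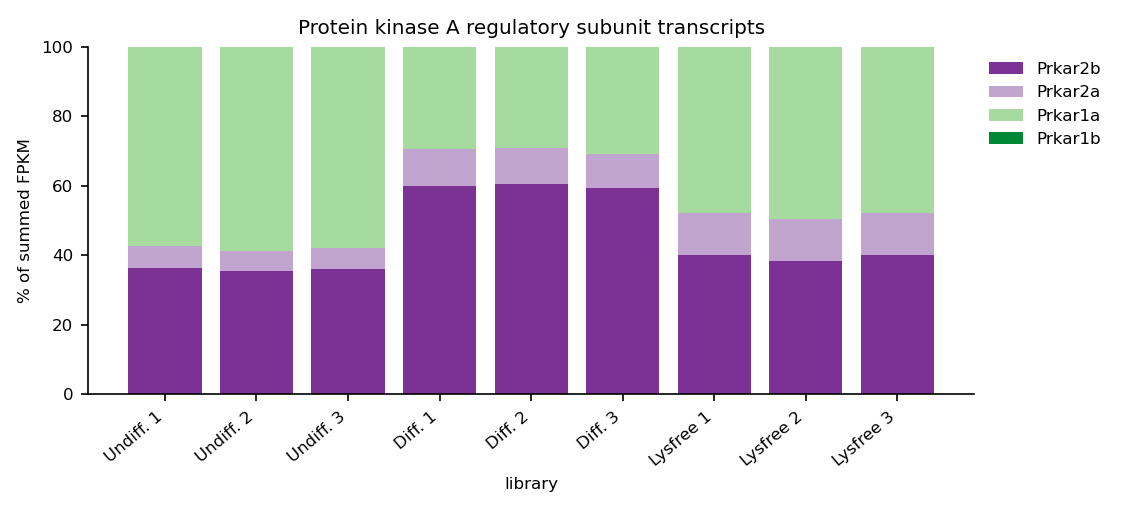
Percent of the summed FPKM of the 4 protein kinase A regulatory subunits in each of the 9 libraries, stacked by subunit. Prkar2b takes 59.5% to 60.5% in Differentiated libraries, 35.5% to 36.3% in Undifferentiated and 38.5% to 40.2% in Lysfree libraries.

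A further 88 genes of the pathway, listed by hand in 8 groups by role, were examined in the same fits. In Differentiated vs Undifferentiated, 31 of 85 tested were higher DEGs and 6 lower DEGs (median log2 fold change 0.72). In Lysfree vs Differentiated, 4 of 84 were higher and 35 lower (median -0.87, or -0.66 with genes at the floor set to their bounds). In Lysfree vs Undifferentiated, 10 of 82 were higher and 14 lower (median -0.31). Over all genes tested, 10.4% were higher and 11.4% lower DEGs in Differentiated vs Undifferentiated. The shares were 8.14% and 10.5% in Lysfree vs Differentiated, and 5.52% and 8.76% in Lysfree vs Undifferentiated. The counts of each group below stand beside these shares, and no set test was run. Of the 88 genes, 30 were below 1 FPKM in every group.

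**Figure D5:**
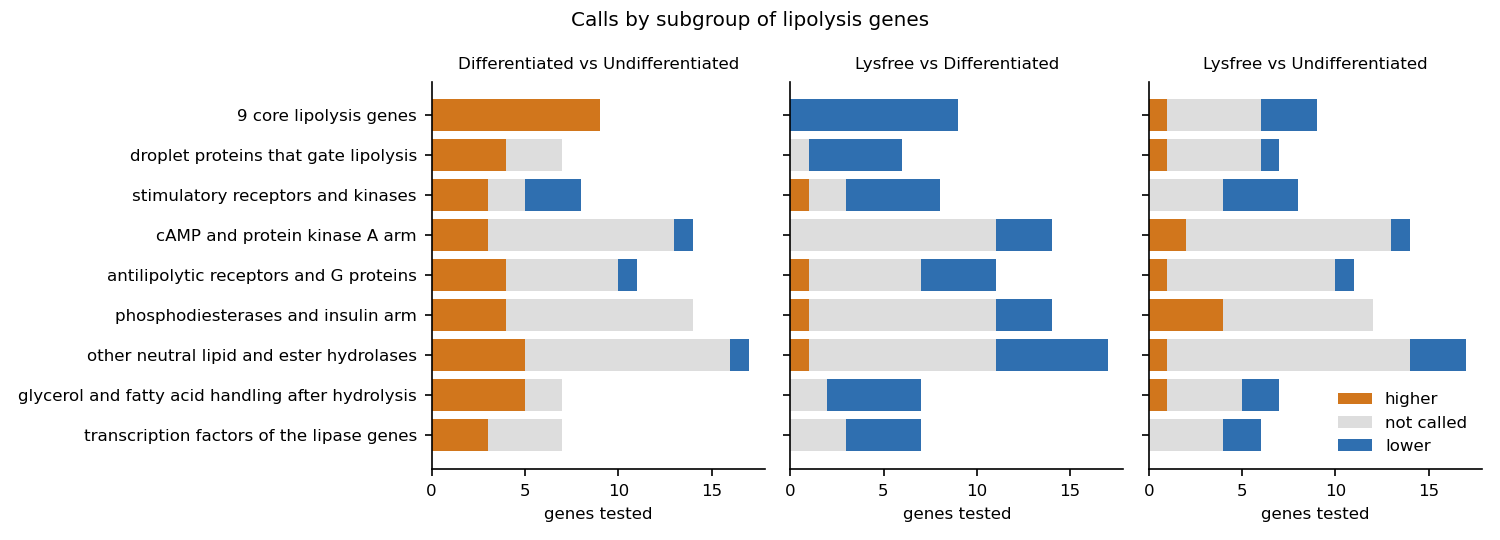
Number of genes of each pathway group that were higher DEGs, lower DEGs or not called in the 3 comparisons. In Lysfree vs Differentiated the 9 core lipolysis genes are all lower DEGs, and the protein kinase A group has 3 lower DEGs of 14 tested.

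Droplet proteins that gate access of the lipases to the fat core gave 4 higher DEGs of 7 on differentiation and 5 lower DEGs of 6 in Lysfree vs Differentiated. Cidec, which fuses droplets and restrains lipolysis, was at 36.7 ± 8.43, 2452 ± 28.3 and 12.0 ± 1.69 FPKM in the 3 groups and changed by -7.61 (SE 0.11, adjusted p = 7.1e-21) in Lysfree vs Differentiated. It was also below Undifferentiated cells (-1.56, SE 0.14, adjusted p = 3e-11). Fabp4, the fatty acid carrier that binds HSL, was at 44.1 ± 13.1, 2445 ± 125 and 36.7 ± 3.37 FPKM and changed by -5.99 (SE 0.09, adjusted p = 1.3e-20). Hilpda, another droplet protein of the list, was at 11.8, 111 and 28.9 FPKM. Its Lysfree libraries lay between the other groups, as for Abhd5 and unlike G0s2.

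Stimulatory receptors and kinases gave 3 higher and 3 lower DEGs of 8 on differentiation, and 1 higher and 5 lower in Lysfree vs Differentiated. Mc2r, the corticotropin receptor, which stimulates lipolysis in rodent fat cells, had 7, 7 and 2 counts in Undifferentiated, 69, 81 and 70 in Differentiated and 0, 0 and 0 in Lysfree libraries. It was thus without reads in Lysfree cells, as Adrb3 was, at least 24.7-fold lower than in Differentiated cells (adjusted p = 4.1e-10). Adrb1, the β1-adrenergic receptor, was also low, at 0.129, 0.250 and 0.0717 FPKM in the 3 groups.

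The cAMP and protein kinase A arm gave 3 higher and 1 lower DEGs of 14 on differentiation, where 21.8% of all genes were called. It gave 3 lower of 14 in Lysfree vs Differentiated (median 0.07), where 18.7% of all genes were called. Prkaca, the main catalytic subunit, was at 52.5 FPKM in Undifferentiated, 92.8 FPKM in Differentiated and 32.8 FPKM in Lysfree cells, a log2 fold change of 0.80 (SE 0.06, adjusted p = 5.9e-46), under the 2-fold threshold, and then of -1.44 (SE 0.095, adjusted p = 6.9e-11).

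Antilipolytic receptors and G proteins gave 4 higher and 1 lower DEGs of 11 on differentiation, and 1 higher and 4 lower in Lysfree vs Differentiated. The lactate receptor Hcar1 had 11, 8 and 4 counts in Undifferentiated, 338, 446 and 334 in Differentiated and 0, 0 and 0 in Lysfree libraries, at least 125-fold lower than in Differentiated cells. The niacin and ketone body receptor Hcar2 had 5, 6 and 2 counts, then 458, 558 and 461, and 1, 0 and 2. Both were thus well above their Undifferentiated counts in Differentiated cells and at or near 0 in Lysfree cells.

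Phosphodiesterases and the insulin arm gave 4 higher DEGs of 14 on differentiation, then 1 higher and 3 lower DEGs in Lysfree vs Differentiated. Of all genes, 21.8% and 18.7% were called in these comparisons, so the counts were near the background. Irs2, an insulin receptor substrate, was at 7.72 FPKM in Undifferentiated, 54.7 FPKM in Differentiated and 19.4 FPKM in Lysfree cells, and like Abhd5 it lay between the other groups (Lysfree vs Differentiated -1.43, SE 0.09, adjusted p = 1.3e-11; Lysfree vs Undifferentiated 1.38, SE 0.11, adjusted p = 1.3e-12). Pde4b, which degrades cyclic AMP, was at 2.14 FPKM in Undifferentiated and 2.19 FPKM in Differentiated cells, and at 6.70, 4.65 and 4.74 FPKM in the Lysfree libraries. Its rise in Lysfree vs Differentiated was 1.35 (SE 0.13, adjusted p = 2.7e-08).

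Other neutral lipid and ester hydrolases gave 5 higher and 1 lower DEGs of 17 on differentiation, then 1 higher and 6 lower. The carboxylesterase Ces1d, which hydrolyses triglyceride in fat, showed a pattern unlike that of Pnpla2 and Lipe, with 14.0, 13.7 and 12.4 FPKM in Undifferentiated, 11.4, 12.1 and 11.8 FPKM in Differentiated and 0.432, 0.421 and 0.239 FPKM in Lysfree libraries. It was not a DEG on differentiation (-0.21, SE 0.09, adjusted p = 0.031) but was lower in Lysfree than in both other groups (-4.95, SE 0.20, adjusted p = 1.7e-14, and -5.15, SE 0.20, adjusted p = 5.5e-20). Its neighbour Ces1f was at 1.54, 4.24 and 0.0541 FPKM. The Ces1 genes are a family of close copies, so reads may have been split among them.

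Glycerol and fatty acid handling gave 5 higher DEGs of 7 on differentiation and 5 lower in Lysfree vs Differentiated. Gpd1, glycerol-3-phosphate dehydrogenase, was at 30.0, 1033 and 7.05 FPKM and changed by -7.13 (SE 0.12, adjusted p = 3.1e-20). Pck1, the enzyme of glyceroneogenesis, was at 0.565, 7.51 and 0.0307 FPKM and changed by -7.76 (SE 0.27, adjusted p = 2.7e-15). Both were also DEGs below the Undifferentiated level, as Aqp7 was.

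Transcription factors of the lipase genes gave 3 higher DEGs of 7 on differentiation and 4 lower in Lysfree vs Differentiated. Among the higher DEGs, Irf4 rested on 4, 10 and 1 counts in Differentiated against 0 in every Undifferentiated library, at least 1.77-fold higher. Egr1 was at 9.05 FPKM in Undifferentiated, 10.7 FPKM in Differentiated and 1.94 FPKM in Lysfree cells. Cebpa was at 22.9, 164 and 8.23 FPKM and changed by -4.25 (SE 0.13, adjusted p = 5.7e-16). Pparg, whose agonist rosiglitazone was in both media, was at 13.7, 51.9 and 8.47 FPKM and changed by -2.55 (SE 0.12, adjusted p = 2.9e-13). The only 4 genes of the list that were higher DEGs in Lysfree vs Differentiated, named after their values were seen, were Npy1r, Prkg1, Pde4b and Ddhd1. Npy1r, the neuropeptide Y receptor, which restrains lipolysis, had 73, 55 and 40 counts in Undifferentiated, 3, 3 and 0 in Differentiated and 120, 107 and 100 in Lysfree libraries, the reverse of Hcar1 and Hcar2. Prkg1, a cyclic GMP-dependent kinase, had 19, 13 and 21 counts, then 2, 3 and 3, and 6, 18 and 19. Ddhd1, a phospholipase, changed by 1.30 (SE 0.16, adjusted p = 1.2e-06) at under 1 FPKM.

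The genes whose profile was closest to each of 3 hydrolases were taken by the smallest root mean square difference of centred log2(FPKM + 1) over the 9 libraries, among 11624 genes. For Pnpla2 they were Glul, glutamine synthetase (0.135), 2610528A11Rik (0.157) and Hcar2 (0.179). For Lipe they were Pcx, pyruvate carboxylase (0.103), the lipid droplet lectin Lgals12 (0.152) and the droplet coat protein Plin1 (0.198). Pcx was at 32.4, 558 and 17.8 FPKM in the 3 groups and Plin1 at 9.19, 197 and 4.88 FPKM. Hcar2 was at 0.109, 15.2 and 0.0276 FPKM, 2610528A11Rik at 0.367, 25.5 and 0.702 FPKM and Lgals12 at 1.36, 35.7 and 0.115 FPKM. The scale compresses values under 1 FPKM, so these genes can be less alike to the lipases in fold change. For Mgll they were Jpt1 (0.0549), D5Ertd579e (0.0558) and Pon2 (0.0637), and since Mgll was under 1 FPKM, its profile on this scale was nearly flat. The libraries share group and depth, and no p is attached to this likeness.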

How the data were processed

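The 9 poly A libraries, 3 per group, were assigned to groups by the labels. Per the submitters' processing notes and the paper, the authors mapped the reads to mm10 (GRCm38) with HISAT2 2.0.5 and used featureCounts 1.5.0-p3, and deposited counts per gene (not normalized) and FPKM. Strand setting and annotation release are not given in the sources used here, so reads of overlapping genes could go to either gene. Columns were matched to samples by the sample names in the labels.

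Each pair of groups was fitted separately with edgeR 4.0.16 (glmQLFit, glmQLFTest, TMM) in R 4.3.3 on the genes that had reads in at least 1 of its 6 libraries; the SE is the size of the log2 fold change divided by the square root of F. Folds against a group with at most 3 counts in each library are bounds against 3 counts per library, for counting error only. Ratios of FPKM were compared with two-sided exact permutation tests, adjusted over 15. No 2 libraries were duplicates. The edgeR and DESeq2 steps were tested on simulated counts, and the limma step was not. Alternatives were DESeq2 1.42.0, median-of-ratios factors, library sizes alone, filterByExpr, 1 fit of all 9 libraries, a minimum of 10 counts in each library, a replicate block, limma 3.58.1 on log2(FPKM + 1) and log2(FPKM + 0.1), no fold threshold, and leaving out each library.

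Named are the 9 genes; from each pathway group the 2 largest changes among DEGs of Lysfree vs Differentiated with a mean of at least 1 FPKM in a group (2 groups had only 1); and the 3 profiles closest to Pnpla2, Lipe and Mgll. Adrb1, Prkar1a, Prkar2a, Prkar1b, Hilpda, Abhd6, Abhd12, Pde3b, Pde4a, Pde4d, Egr1, Irf4, cell type markers and the list's higher DEGs were added. The genes and lists were chosen with earlier results of these data known.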

Additional observations from a re-analysis of the deposited data

How the results depend on the processing

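Over all alternatives, 378 of 395 log2 fold changes of the 9 lipolysis genes kept their direction and their side of the thresholds, 104 of 105 ratio differences kept their direction, and 126 of 144 counts stayed within 1.5 times. All 9 genes kept their direction in Differentiated vs Undifferentiated and in Lysfree vs Differentiated wherever they could be fitted. In Lysfree vs Undifferentiated, G0s2 turned from 0.05 to -0.016 with at least 10 counts in every library, to -0.028 with limma on log2(FPKM + 1) and to -0.034 on log2(FPKM + 0.1), to -0.23 without Lysfree 3 and to -0.10 without Undifferentiated 1 (range without 1 library -0.23 to 0.22), and its log2 ratio to Pnpla2 turned from -0.22 to 0.040 without Lysfree 1 (range without 1 library -0.44 to 0.040). With at least 10 counts in every library, 5 of the 9 genes were tested and 5 called in Lysfree vs Differentiated, and 1 was called in Lysfree vs Undifferentiated, since Mgll, Pnpla3, Adrb3 and Aqp7 dropped out; 24 other pathway genes were called in Differentiated vs Undifferentiated, and 3488, 2891 and 2244 of all genes in Differentiated vs Undifferentiated, Lysfree vs Differentiated and Lysfree vs Undifferentiated. With limma on log2(FPKM + 1) 0 of the 9 genes were called in Lysfree vs Undifferentiated, where Abhd5 was at 0.99; other pathway genes numbered 23, 25 and 12 and all genes 2726, 2198 and 1474. That scale compresses values under 1 FPKM, and on it Mgll and Adrb3 missed the 2-fold threshold in the other 2 comparisons too; on log2(FPKM + 0.1) Adrb3 in Differentiated vs Undifferentiated was at 1.01 and not called. With no fold threshold, 64 other pathway genes were called in Differentiated vs Undifferentiated and 49 in Lysfree vs Undifferentiated, and 11260, 9280 and 8428 of all genes. Without 1 library, 8 to 9, 9 and 3 to 5 of the 9 genes were called in the same order of comparisons. Mgll could not be fitted under filterByExpr in Lysfree vs Undifferentiated.

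Replicate numbers did not pair the libraries (correlations of same-numbered deviations -0.085 to 0.115). With the replicate block, 9, 9 and 4 of the 9 genes, 37, 36 and 22 other pathway genes and 4837, 4173 and 3179 of all genes were called. In Lysfree vs Undifferentiated, the counts of Mgll, Pnpla3, Adrb3 and Aqp7 limit what depth can show.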
